A study of Homo sapiens with 6 samples.

Results

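The imprinted domain of chromosome 11 that holds H19, IGF2, INS, TH, ASCL2, KCNQ1, KCNQ1OT1, CDKN1C, SLC22A18 and PHLDA2 was examined for histone H2A.Z in HEK293T, an established line derived from human embryonic kidney. Peaks of ubiquitylated and of total H2A.Z were merged where they overlapped or touched. A merged region counted as a member when its midpoint lay between 1.9 and 3.0 Mb of chromosome 11 in the hg19 build. The domain held 522 of the 198179 merged regions. Of these, 189 lay before the 2.25 Mb boundary, in the part with H19 and IGF2, and 333 lay beyond it, in the part with KCNQ1, CDKN1C and PHLDA2.

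H2A.Z, a variant form of histone H2A, is found at promoters, enhancers and other regulatory sites. Ubiquitin can be attached to its C-terminal tail. All 6 samples came from HEK293T cells. Expression plasmids gave H2A.Z-1 with a C-terminal Flag-BirA fusion and ubiquitin with an N-terminal AviTag, in a 3 to 1 ratio in the protocol for joint transfection, and the cells were harvested after 48 hours. BirA biotinylates the AviTag, so streptavidin-agarose recovered nucleosomes with biotinylated ubiquitin (2 samples, called ubiquitylated H2A.Z) and Flag M2-agarose recovered the tagged histone (2 samples, called total H2A.Z). The other 2 samples were precipitated with an antibody against histone H3 and enter no comparison here. Chromatin was released by 30 minutes of micrococcal nuclease. The histone was the plasmid-borne one, so endogenous H2A.Z was not measured. The labels do not say whether replicates were separate cultures. The lists hold no read counts and no values per library, so depth is unknown and the spread between libraries enters only through the authors' own IDR and FDR.

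Imprinted genes are expressed from 1 parental copy, set by DNA methylation laid down in the germ line. In the first part, IGF2, a fetal growth factor, is made from the paternal copy and H19, a long non-coding RNA, from the maternal copy. Both depend on a control region near H19 that binds the insulator protein CTCF. In the second part, KCNQ1OT1 is a long non-coding RNA transcribed from the paternal copy, antisense to the potassium channel gene KCNQ1 and from inside it. It is known for silencing its neighbours in cis, among them CDKN1C, an inhibitor of the cell cycle, PHLDA2, which restrains placental growth, and SLC22A18, a membrane transporter. INS encodes insulin, TH the enzyme that starts catecholamine synthesis, and ASCL2 a transcription factor of trophoblast and intestinal stem cells. The lists do not separate the parental copies.

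All 10 genes and all 17 listed neighbours were found by name in the RefSeq gene table of GRCh38.p14, SLC22A18 under its present symbol SLC67A1. That table puts H19, IGF2, INS, TH, ASCL2, KCNQ1, KCNQ1OT1, CDKN1C, SLC22A18 and PHLDA2 in this order, with KCNQ1OT1 inside KCNQ1. Of the genes not named in the boundary rule, KCNQ1OT1 and SLC22A18 therefore belong to the KCNQ1 part. INS, TH and ASCL2 lie between IGF2 and KCNQ1, and the rule does not say on which side of the boundary. The neighbours LSP1, TNNT3 and MRPL23 start before H19. TSPAN32, CD81, TSSC4 and TRPM5 lie between ASCL2 and KCNQ1, and NAP1L4 follows PHLDA2. Since the build of the gene table differs from that of the peak lists, its coordinates were not used. Regions are described by their hg19 position and their part, and were not assigned to single genes. No sequence of the regions is shown for the same reason.

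The domain was densely filled with H2A.Z. It held 47.5 regions per 100 kb, and the regions covered 375 kb, or 34.1%, of its 1.1 Mb. Over the 2628 tiles of equal length that hold at least 1 region, the genome gave a median of 41.0 regions per tile (quartiles 20 and 96) and a median coverage of 1.32% (quartiles 0.688 and 3.19%). Only 6 of those tiles held 522 or more regions, and 2 reached 34.1% coverage. The tiles are laid from the start of each chromosome, so some overlap the domain. These counts describe the genome and no test was made of them.

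Most of the regions lay close together. The median distance to the next region was 386 bp, against 2161 bp over the genome, and 387 of 521 distances (74.3%) were under 1 kb, against 36.6% over the genome. Joining regions less than 1 kb apart gave 135 clusters, of which 49 were single regions. The 32 clusters with 5 or more regions held 314 regions, 60.2% of the domain. The cluster with the most regions lay in the H19 and IGF2 part, at chr11:2026213-2058006. Its 25 regions covered 76.1% of 31.8 kb, 10 of them were higher in ubiquitylated H2A.Z and none was higher in total H2A.Z. The next in size, chr11:2851318-2875351 in the KCNQ1 part, held 24 regions, with 7 higher in ubiquitylated and none higher in total H2A.Z.

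Regions of the domain were also wide. The median width was 516.5 bp (quartiles 305 and 897 bp, range 139 to 5305 bp), against 313 bp over the genome. Regions of at least 1500 bp made up 9.96% of the domain (52 regions) and 1.47% of the genome. In the H19 and IGF2 part 13.8% of regions were that wide and in the KCNQ1 part 7.81%. The 3 widest in the H19 and IGF2 part were chr11:2047867-2053171 (5305 bp), chr11:1954700-1958606 (3907 bp) and chr11:2192667-2196351 (3685 bp). In the KCNQ1 part they were chr11:2554261-2558135 (3875 bp), chr11:2435281-2438212 (2932 bp) and chr11:2466504-2469354 (2851 bp). All 6 held peaks of both lists. The 5305 bp region joined 1 ubiquitylated peak with 3 peaks of total H2A.Z, so the ubiquitylated signal was called as a single stretch where total H2A.Z was called in pieces. The 3875 bp region had the opposite make-up, with 3 ubiquitylated peaks and 1 of total H2A.Z.

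Ubiquitylated peaks outnumbered total H2A.Z peaks in the domain, 495 against 391, a ratio of 1.27 where the whole genome gave 0.999. In bases the ratio was 1.43, against 1.04 over the genome. It was similar in both parts, 1.45 for H19 and IGF2 and 1.41 for KCNQ1. The width of single peaks followed the merged regions, with medians of 533 bp (ubiquitylated) and 484 bp (total) against 316 and 310 bp over the genome. The IDR, the authors' measure of irreproducibility between replicates, did not stand apart. Its median was 0.00126 for ubiquitylated peaks (genome 0.00137) and 0.0034 for total H2A.Z peaks (genome 0.00335).

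Peaks of both lists occurred together in 286 regions, 54.8% of the domain (Wilson 95% interval 50.5 to 59.0%), against 41.9% over the genome. A further 176 regions (33.7%, 29.8 to 37.9%) held ubiquitylated peaks alone, against 28.9% over the genome. Regions with total H2A.Z peaks alone numbered 60 (11.5%, 9.04 to 14.5%), against 29.2% over the genome. The shortfall of total-only regions was present in both parts, with 19 of 189 (10.1%) in the H19 and IGF2 part and 41 of 333 (12.3%) in the KCNQ1 part. These intervals take regions as independent, which neighbouring regions are not, and cover counting error only.

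In the 224 regions with exactly 1 peak of each list, the midpoints of the pair lay a median of 25.5 bp apart (19.5 bp over the genome), and in 193 of them (86.2%) the peaks shared at least 50% of both. The ubiquitylated peak was the wider of the pair in 135 regions (60.3%), against 44.6% over the genome. The excess was larger in the H19 and IGF2 part (50 of 75, 66.7%) than in the KCNQ1 part (85 of 149, 57.0%), a difference that was not tested. The ubiquitylated peak enclosed the whole total H2A.Z peak in 76 regions, and the reverse held in 55.

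The peak with the lowest IDR of the domain was a ubiquitylated peak in the H19 and IGF2 part, at chr11:1938693-1940155 (IDR 3.02e-07). The total H2A.Z peak with the lowest IDR of that part, chr11:1938731-1940156 (IDR 5.4e-05), lay over the same bases, and the region was in neither differential list. Next among ubiquitylated peaks of that part came chr11:2154048-2155106 (IDR 5.01e-07) and chr11:2044056-2044727 (IDR 6.41e-07), of which the second lay in a region higher in ubiquitylated H2A.Z. For total H2A.Z the next were chr11:2174831-2175306 and chr11:1989792-1991357 (IDR 6.07e-05 and 7.59e-05). In the KCNQ1 part the ubiquitylated peaks with the lowest IDR were chr11:2292623-2293684, chr11:2910291-2910908 and chr11:2865175-2865947 (IDR 2.72e-06, 2.87e-06 and 5e-06), the first and last of them in regions higher in ubiquitylated H2A.Z. For total H2A.Z the lowest IDR values there belonged to chr11:2442180-2442777, chr11:2441138-2442076 and chr11:2857493-2858036 (IDR 1.1e-05 to 1.41e-05), all in regions outside both differential lists.

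The comparison of the pull-downs asked where ubiquitylated H2A.Z was higher or lower relative to total H2A.Z under the authors' normalization, which is not described in the labels. Almost all differential regions of the domain had the same direction. In the authors' deposited table, 89 of 522 regions (17.0%, Wilson 95% interval 14.1 to 20.5%) were higher in ubiquitylated H2A.Z, where 9.39% of all merged regions were. Only 7 regions (1.34%, 0.651 to 2.74%) were higher in total H2A.Z, where 12.1% of all merged regions were. The share that was differential at all was 18.4% (15.3 to 21.9%), an interval that includes the 21.5% of the genome. Of the 96 differential regions, 92.7% leaned to ubiquitylated H2A.Z, against 43.7% over the genome. Among the 674 tiles of equal length with at least 20 differential regions, 30 reached 92.7% or more. Streptavidin and Flag beads are different reagents, and their effect and that of ubiquitylation cannot be told apart. The base of the deposited fold changes is not stated, and they were read as log2 since the submitters' processing notes name edgeR.

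**Figure D1:**
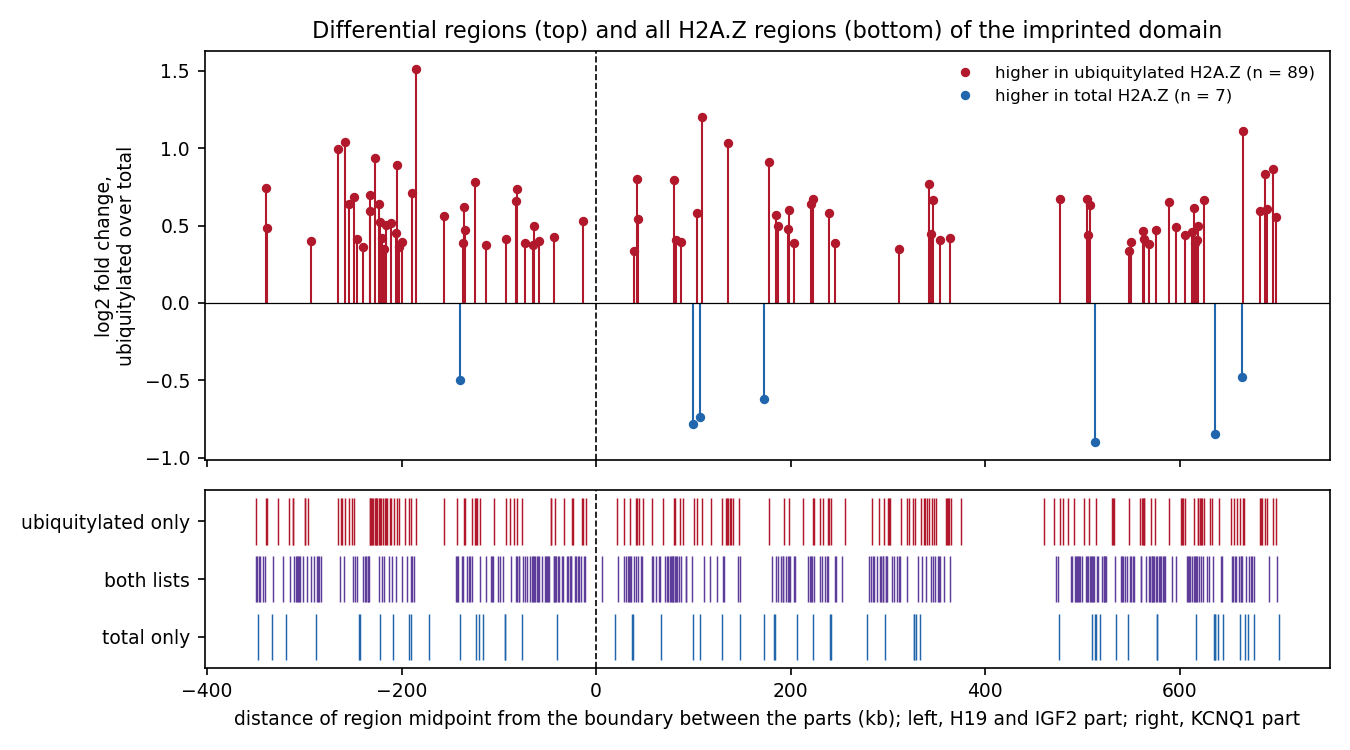
Top, the authors' log2 fold change of ubiquitylated over total H2A.Z for each differential region (1 stem each); bottom, every merged region as a tick by the list or lists with a peak there. The x axis is the distance of the region's midpoint from the boundary between the parts (dashed line, in kb). The 89 upward stems run along both parts, the 7 downward stems are few in each part (1 and 6), and the empty stretch in the KCNQ1 part is the gap of 84.5 kb.

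The changes towards ubiquitylated H2A.Z were small. In the authors' deposited table their median was 0.52 on the log2 scale (quartiles 0.41 and 0.67, range 0.34 to 1.51), against 0.68 over the genome. The lists give fold changes only for regions with an FDR of at most 0.05, so all these medians leave out the other regions. The domain's regions higher in ubiquitylated H2A.Z were wider than those of the genome (median 849 against 507 bp). Among these listed regions, wider ones had smaller changes. How far the FDR limit itself shapes this was not tested. Within width classes the medians were closer, 0.90 against 0.91 for at most 300 bp and 0.63 against 0.69 for over 300 to 600 bp. For over 600 to 1200 bp they were 0.53 against 0.57, and for wider regions 0.40 against 0.48. At 2-fold or more the domain showed no excess. The authors' deposited table held 5 regions at least 2-fold higher in ubiquitylated H2A.Z, 0.958% of the domain (Wilson 95% interval 0.41 to 2.22%). That interval includes the 1.47% of all merged regions. No region was at least 2-fold higher in total H2A.Z, where 2.39% of all merged regions were. Of the 89 regions higher in ubiquitylated H2A.Z, the 45 with ubiquitylated peaks alone had a median of 0.64. The 44 with peaks of both lists had a median of 0.42. These groups also differed in median width, 598 against 1346.5 bp, so peak class and width were not separated here. In the authors' deposited table, 44 of the 89, or 8.43% of the domain, had an FDR under 0.01, where 5.16% of all merged regions were higher in ubiquitylated H2A.Z at that FDR. Towards total H2A.Z these were 4 regions (0.766%), where 7.09% of all merged regions were.

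Peak class and direction are not independent, since both come from the same libraries. Over the genome, the authors' deposited table had 13604 regions with ubiquitylated peaks alone leaning to ubiquitylated and 73 to total H2A.Z. For regions with total H2A.Z peaks alone these were 48 and 17634. Differences between the classes are therefore largely built in, and only shares within a class are set beside the genome here. In the authors' deposited table, 25.6% of the domain's regions with ubiquitylated peaks alone were higher in ubiquitylated H2A.Z, close to the 23.8% of the genome. Where both lists had a peak (286 regions), 44 (15.4%) were higher in ubiquitylated H2A.Z, where 5.97% of all such regions were. Just 1 of the 286 (0.35%) was higher in total H2A.Z, where 7.52% of all such regions were. Of the 60 regions with total H2A.Z peaks alone, 6 (10.0%) were higher in total H2A.Z, against 30.5% over the genome. The domain's regions with peaks of both lists were also wider than such regions of the genome (median 735.5 against 425 bp). How far width accounts for the difference in that class was not tested.

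Share and width went together. In the domain the authors' deposited table marked as higher in ubiquitylated H2A.Z 8 of 126 regions of at most 300 bp (6.35%), 20 of 179 regions of over 300 to 600 bp (11.2%), 28 of 134 regions of over 600 to 1200 bp (20.9%) and 33 of 83 wider regions (39.8%). Over the genome the corresponding shares were 4.66%, 9.31%, 21.02% and 31.4%, and each of them lay inside the Wilson interval of the domain's share. In the other direction, total H2A.Z, the domain's shares in the same 4 classes were 2.38%, 1.12%, 1.49% and 0 of 83, which allows a share of up to 3.61% by the limit of 3 counts and 4.42% by the Wilson interval. Over the genome they were 9.36%, 14.3%, 16.0% and 10.6%, each above the Wilson interval of the domain's share. These intervals take neighbouring regions as independent, which they are not. They are therefore too narrow to decide whether the domain differed from the genome within a width class.

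**Figure D2:**
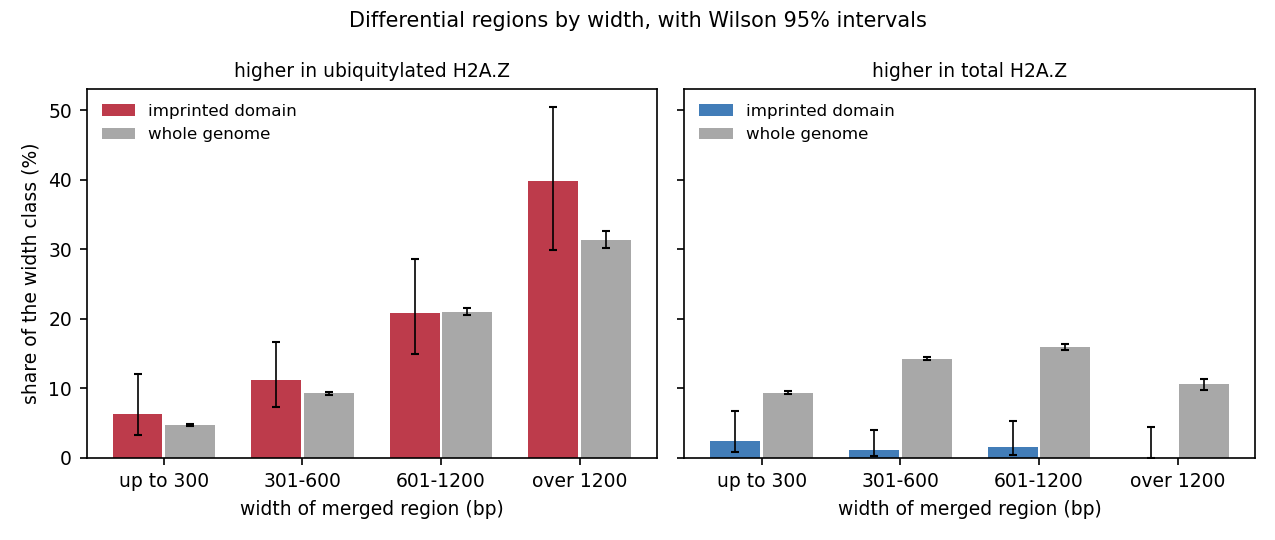
Share of merged regions in each width class (x axis, bp) that were higher in ubiquitylated (left) or total (right) H2A.Z, as percent of the class. Coloured bars are the domain, grey bars the whole genome, and error bars are Wilson 95% intervals. The intervals take neighbouring regions as independent, which they are not. On the left the pairs range from 20.9 against 21.02% for over 600 to 1200 bp to 39.8 against 31.4% for wider regions. On the right the domain's bars stay at or under 2.38% in every class.

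The domain differed from the genome in its widths and in its peak classes, so the counts were also set beside a background with the same mix. Genome-wide shares weighted by the domain's own mix of width classes gave 76.8 regions leaning to ubiquitylated and 67.5 leaning to total H2A.Z. Weighted by peak class alone they gave 58.9 and 40.0, and by width and peak class together 92.8 and 46.9. The domain had 89 and 7. Its count for ubiquitylated H2A.Z was above the first and second of these backgrounds and near the last, so it depends on the background chosen. Its count for total H2A.Z was below all of them. Peak classes come from the same libraries as the fold changes, so the weighting by them is not independent of the calls.

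Along the chromosome the differential regions fell into long series of 1 direction. A series was a run of consecutive differential regions of 1 direction, so by definition it holds none of the other direction. From chr11:1910136 to chr11:2094066, a stretch of 184 kb with 91 regions, 25 leaned to ubiquitylated H2A.Z. The authors' deposited table gave these 25 a median of 0.56 on the log2 scale. The series from chr11:2112486 to chr11:2338109 crossed the boundary between the parts, with 20 of 131 regions higher in ubiquitylated H2A.Z over 226 kb. Another series, of 330 kb in the KCNQ1 part from chr11:2427829 to chr11:2758261, held 20 of 127 regions and included the widest gap. The next, from chr11:2796552 to chr11:2875351, held 15 of 58 regions over 78.8 kb. Of the domain's 522 regions 89 leaned this way in the authors' deposited table, and of all merged regions 9.39% did. Each series starts and ends at a differential region, which raises its share by definition. Of 95 neighbouring pairs of differential regions, 83 (87.4%) had the same direction, against 72.5% over the genome. With 89 of 96 regions in 1 direction most pairs match by construction, so this says little beyond the counts.

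In the H19 and IGF2 part 39 of 189 regions (20.6%, Wilson 95% interval 15.5 to 27.0%) leaned to ubiquitylated H2A.Z, and 1 (0.529%) to total H2A.Z, according to the authors' deposited table. In the KCNQ1 part these were 50 of 333 (15.0%, 11.6 to 19.2%) and 6 (1.80%). The difference of 5.62 percentage points had a 95% interval of -1.05 to 12.8 by Newcombe's method, which includes 0. With the boundary moved 50 kb towards the short arm end the difference was 9.32 points (2.17 to 17.2), which excludes 0. The size of the difference thus depends on where the boundary is set. Both intervals take neighbouring regions as independent, which they are not, so they cannot decide whether the parts differed. The H19 and IGF2 part was the denser, with 54.0 regions per 100 kb against 44.4, and the more fully covered, 44.2% against 29.4%.

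The densest concentration of regions higher in ubiquitylated H2A.Z lay between 2.0 and 2.1 Mb, in the H19 and IGF2 part, where they made up 19 of 54 regions (35.2%). Of these 19, 15 lay in the first 50 kb of that bin, which was 65.3% covered by regions. In the same bin regions with ubiquitylated peaks alone (27) outnumbered those with peaks of both lists (20), which in the other 10 bins held only from 2.6 to 2.7 Mb (6 against 5). Between 2.2 and 2.3 Mb, across the boundary, 55 regions were as closely packed but 5 (9.09%) were higher in ubiquitylated H2A.Z. Among the bins wholly in the KCNQ1 part the share was highest from 2.4 to 2.5 Mb (10 of 42, 23.8%) and 2.8 to 2.9 Mb (14 of 69, 20.3%), the 100 kb bin with the most regions. With 50 kb bins the most regions, 41, lay from 2.0 to 2.05 Mb, in the H19 and IGF2 part, so the densest place depends on the bin. It was lowest from 2.5 to 2.6 Mb (4 of 51, 7.84%) and 2.7 to 2.8 Mb (5 of 53, 9.43%).

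**Figure D3:**
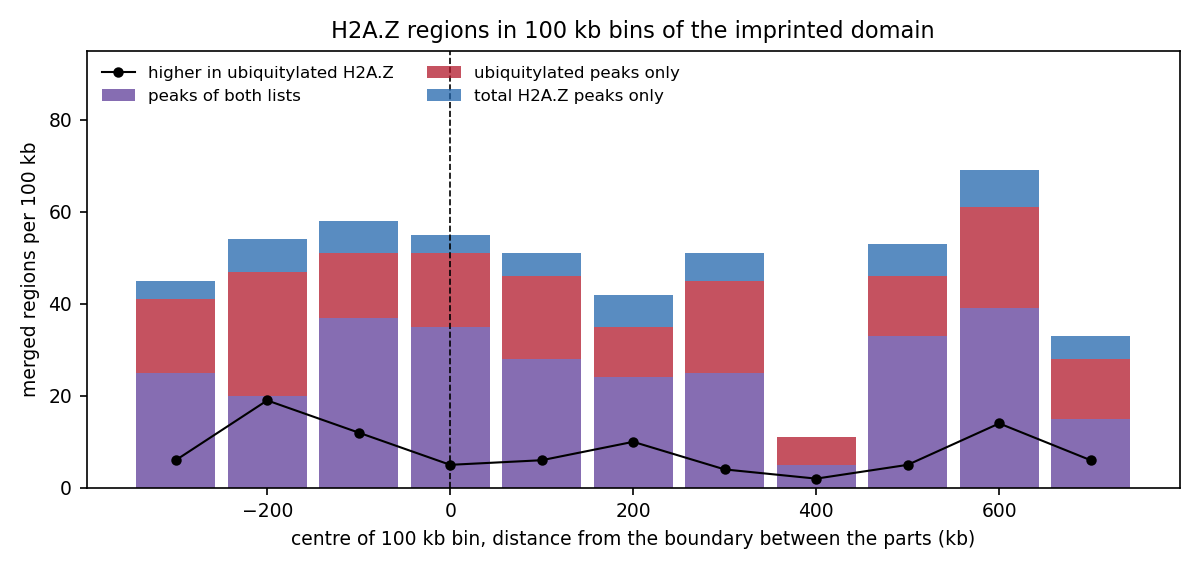
Merged regions per 100 kb bin (y axis) against the distance of the bin's centre from the boundary between the parts (x axis, kb; dashed line, the boundary). Stacked bars give regions with peaks of both lists, ubiquitylated peaks only and total H2A.Z peaks only, and black points the regions higher in ubiquitylated H2A.Z. The points peak at 19 in the bin of 54 regions on the H19 side, and the short bar of 11 regions marks the bin from 2.6 to 2.7 Mb.

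The 5 regions of lowest FDR in the H19 and IGF2 part all lay above the domain's median fold change, which selection by FDR favours. In the authors' deposited table chr11:1991807-1992430 had a log2 value of 1.04 (FDR 2.6e-05) and chr11:1910136-1911173 one of 0.74 (FDR 7.3e-05), both with ubiquitylated peaks alone. They were followed in the authors' deposited table by chr11:2166524-2167866 (0.66, FDR 0.0001), chr11:2045087-2045636 (0.89, FDR 0.00021) and chr11:2168509-2169013 (0.73, FDR 0.00035). Of these, chr11:2166524-2167866 and chr11:2168509-2169013 held peaks of both lists and had 1 region between them. By fold change the leading region was narrow, chr11:2064870-2065037 of 168 bp, at 1.51 (FDR 0.0011) in the authors' deposited table. It was the last region before an empty stretch of 13.4 kb. The others among the 5 with the largest fold changes were chr11:1984520-1984795 (0.99, FDR 0.012) and chr11:2022280-2022591 (0.93, FDR 0.0005) in the authors' deposited table, beside 2 already named.

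In the KCNQ1 part the region of lowest FDR of the whole domain was chr11:2590645-2592870, 2226 bp wide and with a ubiquitylated peak alone (log2 fold change 0.77, FDR 2e-07 in the authors' deposited table). Close to it lay chr11:2595789-2597264, with peaks of both lists (0.67, FDR 1.8e-05 in the authors' deposited table). The others of low FDR in the authors' deposited table were chr11:2469996-2471402 (0.64, FDR 1.5e-05), chr11:2291526-2292515 (0.80, FDR 9.9e-05) and chr11:2435281-2438212 (0.49, FDR 0.00017). Fold changes of at least 2-fold belonged to 3 regions of 161 to 519 bp with ubiquitylated peaks alone. In the authors' deposited table these were chr11:2358268-2358471 (1.20, FDR 0.00038), chr11:2915122-2915282 (1.11, FDR 0.019) and chr11:2385025-2385543 (1.03, FDR 0.00018). Next by size in the authors' deposited table were chr11:2427829-2428365 (0.91, FDR 0.0013) and chr11:2944848-2945458 (0.87, FDR 0.00025).

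All 7 regions higher in total H2A.Z can be named, and none reached 2-fold. The 1 in the H19 and IGF2 part was chr11:2110017-2110897, 881 bp wide, at -0.49 on the log2 scale (FDR 0.008) in the authors' deposited table. The first 3 in the KCNQ1 part were chr11:2349401-2349630 (-0.78, FDR 0.014), chr11:2356801-2356992 (-0.73, FDR 0.048) and chr11:2422041-2422551 (-0.62, FDR 0.013) in the authors' deposited table. The last of these is the first region after a gap of 23.6 kb. Further on came chr11:2762407-2762760 (-0.90, FDR 0.0034), chr11:2886046-2886250 (-0.85, FDR 0.0093) and chr11:2913511-2914408 (-0.48, FDR 0.0086) in the authors' deposited table. Of the 7, 6 held total H2A.Z peaks alone and the last held 1 peak of each list. The last 2 of them, which span 28.4 kb, had no region higher in ubiquitylated H2A.Z between them, and the others each stood alone between such regions. The last, chr11:2913511-2914408, was followed after 713 bp by chr11:2915122-2915282, which changed the other way.

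Against this density the gaps stood out. Between members there were 11 stretches of more than 10 kb without a region, 2.11% of all distances against 25.04% over the genome, and they added up to 236.5 kb, 21.5% of the domain. The stretch from the last member to the end of the interval, chr11:2951573-3000000, was also empty and 48.4 kb long. With it the empty stretches numbered 12 and made up 25.9% of the domain. The widest, chr11:2625229-2709758 in the KCNQ1 part, was 84.5 kb long and held no peak of either list. On either side of it the nearest regions with peaks of both lists were chr11:2613023-2614115, which was higher in ubiquitylated H2A.Z (log2 fold change 0.42, FDR 0.036 in the authors' deposited table), and chr11:2721532-2722790, in neither differential list. The 107 kb between them held 4 regions, each with a ubiquitylated peak alone and none differential. The stretch includes the lists' only empty 50 kb bin of the domain. Whether reads could be placed there was not tested. After it and the end stretch, the widest in the KCNQ1 part were 23.6 kb, at chr11:2398412-2422040, and 22.2 kb, at chr11:2506349-2528506. In the H19 and IGF2 part no gap exceeded 16.3 kb (chr11:1968202-1984519), and 3 more lay next to one another between chr11:2065038 and chr11:2105959, separated by 2 isolated regions. The boundary between the parts fell in a gap of 16.1 kb, between chr11:2239910-2240076 and chr11:2256157-2256708, neither of them differential.

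The edges of the interval were unlike. The first member, chr11:1899767-1900375, was in neither differential list, and the region before it, chr11:1898532-1899651, was 115 bp away and higher in ubiquitylated H2A.Z (log2 fold change 0.41, FDR 0.013 in the authors' deposited table). The last member, chr11:2951205-2951572, was in neither differential list. The next region, chr11:3013791-3014438, followed after 62218 bp and was higher in total H2A.Z (-0.92, FDR 1.1e-05 in the authors' deposited table).

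The neighbouring intervals of 1.1 Mb differed from each other. In the one before the domain, towards the end of the short arm, 85 of 340 regions (25.0%, Wilson 95% interval 20.7 to 29.9%) leaned to ubiquitylated and 11 (3.24%) to total H2A.Z, according to the authors' deposited table. In the one after it, 16 of 141 regions (11.3%, 7.11 to 17.6%) leaned to ubiquitylated and 20 (14.2%, 9.37 to 20.9%) to total H2A.Z. That interval also held fewer regions per 100 kb (12.8) than the domain or the interval before it (30.9), and they covered 7.22% of its length. The remainder of chromosome 11 gave 9.52% and 11.9%. A high share for ubiquitylated and a low share for total H2A.Z were thus also found in the interval before the domain. Its density and coverage were lower, with 30.9 regions per 100 kb against 47.5 and 23.1% covered against 34.1% in the domain. Several other measures were near those of the domain. The ratio of ubiquitylated to total peaks was 1.31, regions with total H2A.Z peaks alone made up 10.9% and those with peaks of both lists 54.4%. The median width was 505.5 bp, and 10.6% of its regions were at least 1500 bp wide. None of these differences was tested, since the lists give no values per library.

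**Figure D4:**
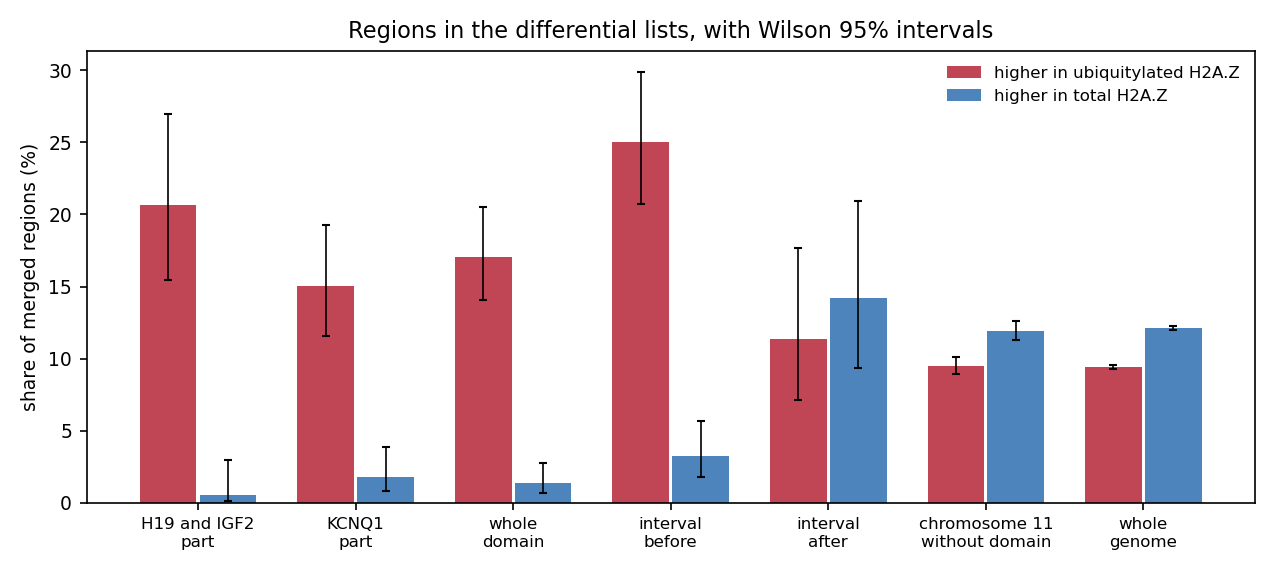
Share of merged regions (y axis, percent) that were higher in ubiquitylated (red) or total (blue) H2A.Z in each set of regions on the x axis. Error bars are Wilson 95% intervals, which take neighbouring regions as independent, though they are not. Both parts of the domain and the interval before it have tall red and short blue bars, whereas the interval after it, at 11.3 and 14.2%, the remainder of chromosome 11 and the whole genome have blue bars above the red.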

How the data were processed

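Bowtie, SAMtools, MACS2, edgeR and the build hg19 are named in the submitters' processing notes, with neither versions nor settings. The authors deposited 4 lists. Each peak list covers both replicates of its group and holds per peak a q-value-like IDR of at most 0.05 (per the file names). Each differential list holds the authors' deposited FDR and fold change of ubiquitylated over total H2A.Z, read as log2.

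Starts were raised by 1 to give 1-based positions, as for BED files. All 42574 differential regions matched a merged region exactly. No count model or test was possible, so shares are given with Wilson 95% intervals beside all merged regions. The intervals take regions as independent, which neighbouring regions are not. Merging and matching were tested on simulated data. The regions named are, per part, the 5 of lowest FDR and the 5 of largest fold change in each direction, the 3 widest, the 3 peaks of lowest IDR per list, and those at boundaries and wide gaps. The members, lists and named regions were chosen with earlier results of these data known; clusters, tiles, series and width weighting were chosen after the data were seen. Tools were Python 3.11.15, pandas 2.3.3, scipy 1.17.1 and matplotlib 3.10.9.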

Additional observations from a re-analysis of the deposited data

How the results depend on the processing

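No paired analysis was possible because each list gives a region 1 value, with none per library, and no replicate could be left out for the same reason. Start sites of the genes were not examined, since that needs an hg19 annotation. With peaks under an IDR of 0.01 alone, 42.4% of regions held ubiquitylated peaks only and 44.8% held both. Requiring 50% of both peaks to overlap left 44.2% with both. Under an FDR of 0.01, 8.43% of regions were higher in ubiquitylated H2A.Z (5.16% over the genome). At 2-fold or more 0.958% were, with an interval that includes the 1.47% of the genome, so no excess was seen there. At that threshold 0 were higher in total H2A.Z (up to 0.575% by the limit of 3 counts, against 2.39%). Counting just regions where both lists had a peak, 0.35% were higher in total H2A.Z. Moving the boundary 50 kb towards the short arm end gave a difference between the parts of 9.32 percentage points with an interval that excludes 0. Moving it 50 kb the other way gave 4.65 with one that includes it. These intervals take regions as independent and cannot decide whether the parts differed. In all, 18 of 26 alternatives changed no call and stayed within the interval of the value reported. These include the 50 kb bins, for which the density stayed within the interval but the densest place moved to the H19 and IGF2 part. They also include counting regions by overlap with the interval and keeping touching peaks apart. Both left the reported values unchanged, so they say little. Of the other alternatives, 6 moved out of the interval. The boundary moved towards the short arm end gave 1 stronger result, and the threshold of 2-fold or more removed 1 excess.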
